A study of Mus musculus with 2 samples.

Results

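The genes described here are 10 components of transforming growth factor beta (TGF-beta) and bone morphogenetic protein (BMP) signaling: the ligands Tgfb1, Tgfb2, Tgfb3, Bmp4 and Bmp7, the receptors Tgfbr1 and Tgfbr2, the inhibitors Bambi and Smad7, and the BMP target Id1. They were chosen by name, and all 10 were found among the 19320 features of the expression table. Their transcripts were followed across epithelial, stromal and immune cells of mouse prostate lesions. The mice were R26 mTmG/hAR:Osr1 Cre/+, so Cre made from the Osr1 locus switches on a human androgen receptor transgene (hARtg) and membrane-bound green fluorescent protein (mGFP) in the same lineage. The labels list 1 library of prostatic intraepithelial neoplasia (PIN) and 1 library of prostatic adenocarcinoma (PCa), and both carry the Cre driver, the transgene and the reporter. No library without the transgene was analysed here. PIN tissue was taken at 6 months of age and PCa tissue at 12 months, so lesion and age differ together between the libraries. Whether animals were pooled is not given in the sources used here.

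TGF-beta and BMP ligands are secreted dimers that bring type I and type II serine/threonine kinase receptors together, and the receptors then phosphorylate SMAD proteins that enter the nucleus. TGF-beta ligands act through the type II receptor TGFBR2 and the type I receptor TGFBR1 on SMAD2 and SMAD3, and they restrain growth of many epithelia. BMP ligands act through other receptors on SMAD1, SMAD5 and SMAD9, and Id1 is a classic target of that branch. BAMBI is a receptor-like membrane protein without a kinase domain, and SMAD7 is an inhibitory SMAD that TGF-beta signals themselves induce.

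Neither the labels nor the column names state which of the 2 barcode endings belongs to PIN or to PCa, so cells were kept apart as barcode set 1 and barcode set 2 and no cell was assigned to a tissue. Set 1 held 6332 cells with 134850345 unique molecular identifiers (UMIs, tags that count captured RNA molecules) and a median of 17235 per cell. Set 2 held 9410 cells with 187280119 UMIs and a median of 14824.5 per cell, and 67 barcodes occurred in both sets. After removal of called doublets, 15412 cells were grouped into classes named for marker genes. There were no replicates, so no test was made. Levels are CPM, the UMIs of a gene in a class scaled to the same total in every class, with exact Poisson 95% intervals, and ratios are on the log2 scale with 95% intervals. Both intervals cover counting error only. A ratio was formed where a gene had 20 or more UMIs over both sides, and a log2 ratio of 1 or more, or -1 or less, is called past 2-fold. EGFP, the name of the mGFP feature in the table, split epithelial cells further. EGFP-low cells lay at or under the summed EGFP level of leukocyte-like cells of the same set, 72.0 CPM in set 1 and 1020 CPM in set 2. EGFP-high cells lay at 4 times that level or above, and cells between were left out.

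Promoter sequence from RefSeq (assembly GRCm38.p6, the assembly behind mm10) was matched for 5 of the 10 genes: Tgfb1, Tgfb2, Tgfbr1, Tgfbr2 and Bmp4. The 250 bases before the start are shown for the receptor and the ligands whose luminal levels differed most between cell groups. Each is written 5′ to 3′ on the strand of its gene, and capitals mark the GC box GGGCGG on either strand. Tgfbr2 spans chr9:116087695-116175363 on the minus strand, Bmp4 spans chr14:46383525-46390669 on the minus strand, and Tgfb1 spans chr7:25687002-25705077 on the plus strand.
Tgfbr2, chr9:116175364-116175613, minus strand: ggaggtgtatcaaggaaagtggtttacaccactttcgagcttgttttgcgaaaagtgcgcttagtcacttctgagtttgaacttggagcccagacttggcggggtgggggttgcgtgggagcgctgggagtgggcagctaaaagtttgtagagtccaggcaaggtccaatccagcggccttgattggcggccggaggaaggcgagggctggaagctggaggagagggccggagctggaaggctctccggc
Bmp4, chr14:46390670-46390919, minus strand: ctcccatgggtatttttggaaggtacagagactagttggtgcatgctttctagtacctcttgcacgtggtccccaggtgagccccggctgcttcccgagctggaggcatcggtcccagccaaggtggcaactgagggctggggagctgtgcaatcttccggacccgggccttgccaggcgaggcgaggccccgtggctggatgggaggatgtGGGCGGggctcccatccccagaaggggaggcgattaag
Tgfb1, chr7:25686752-25687001, plus strand: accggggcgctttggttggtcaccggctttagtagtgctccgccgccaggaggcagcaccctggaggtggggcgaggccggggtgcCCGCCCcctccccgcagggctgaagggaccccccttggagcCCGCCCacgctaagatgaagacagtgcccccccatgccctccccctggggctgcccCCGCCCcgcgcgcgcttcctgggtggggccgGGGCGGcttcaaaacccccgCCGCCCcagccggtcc

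The Tgfb1 window held 5 GC boxes, starting at positions 87, 128, 184, 215 and 235 from its 5′ end, and its GC content was 75.2%. The Bmp4 window held 1 at position 213 and had a GC content of 63.2%, whereas the Tgfbr2 window held none and had a GC content of 58.4%. Of 32851 mouse promoter windows of this length, 32.7% held a GC box. The SMAD palindrome GTCTAGAC (0.167% of all windows), the BMP-SMAD element GGCGCC (9.59%), the androgen receptor half-site AGAACA (16.1%) and the full androgen site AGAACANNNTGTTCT (0.00913%) were also searched on both strands. None of these letters was found in the windows of Tgfb1, Tgfbr2 or Bmp4.

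The first question was which cells carried each transcript. Among classes of 50 or more cells, the class with the highest level was the same in both sets for 5 of the 10 genes. Tgfb2, Tgfb3 and Bmp4 were highest in fibroblast-like cells, Tgfbr1 in macrophage or dendritic-like cells and Bmp7 in luminal-like cells. For the other 5 genes, the class that was highest in set 2 was endothelium-like cells, which numbered only 40 in set 1 and were left out of that order there.

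**Figure D1:**
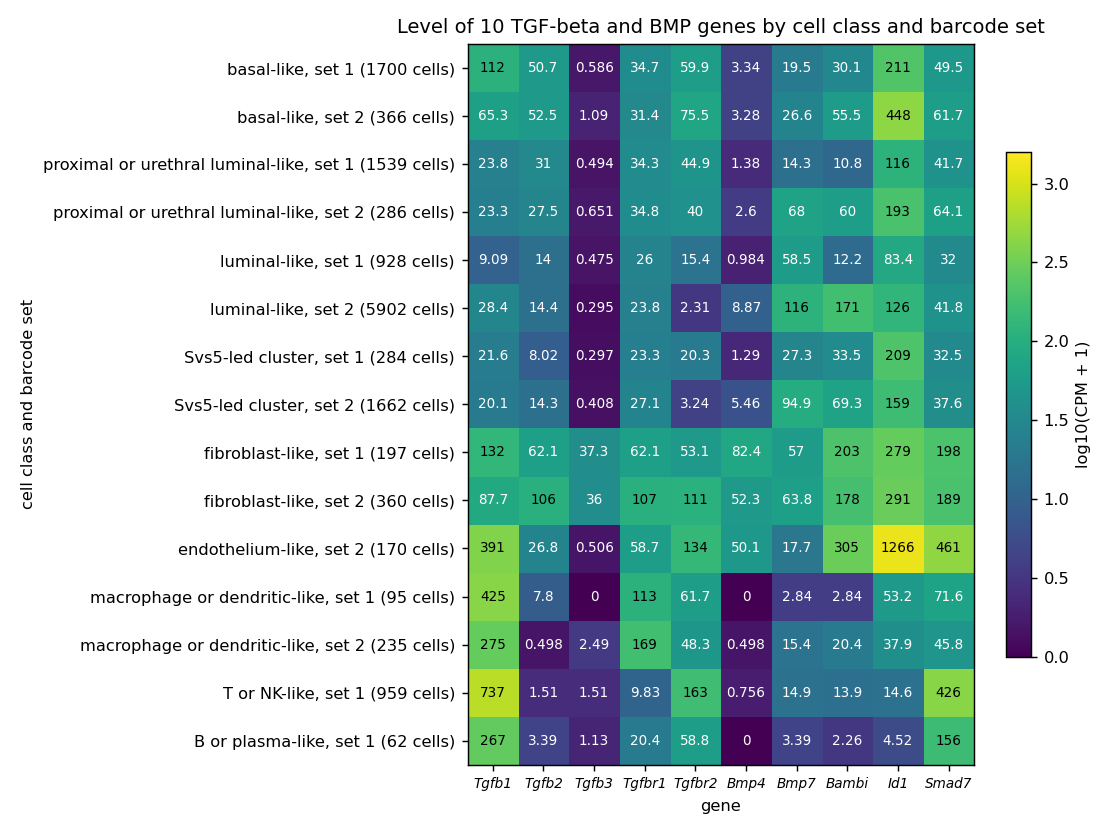
Level of the 10 genes, as log10(CPM + 1), in each cell class and barcode set, with the number of cells beside each row; darker and lighter colours follow the scale bar. Tgfb3 is seen in the fibroblast-like rows (37.3 and 36.0 CPM in sets 1 and 2), and Bambi in luminal-like cells stands at 12.2 CPM in set 1 and 171 CPM in set 2.

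Among the ligands, Tgfb1, the ligand made widely by blood and vessel cells, was highest in T or NK-like cells of set 1 at 737 CPM (710 to 764). Macrophage or dendritic-like cells held 425 CPM (392 to 461) of Tgfb1 in set 1 and 275 CPM (252 to 299) in set 2, and endothelium-like cells of set 2 held 391 CPM (364 to 420). Stroma and epithelium held less. Fibroblast-like cells were at 132 CPM (115 to 150) and 87.7 CPM (75.5 to 101), and basal-like cells at 112 CPM (107 to 116) and 65.3 CPM (56.1 to 75.6), in sets 1 and 2. The intervals of these neighbours, fibroblast-like and basal-like, overlapped in both sets. Luminal-like cells held the least Tgfb1 in set 1, 9.09 CPM (8.03 to 10.2), but 28.4 CPM (27.5 to 29.4) in set 2.

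Tgfb2, a ligand needed for organ development, was a transcript of fibroblast-like and basal-like cells. Fibroblast-like cells held 62.1 CPM (51.0 to 74.8) and 106 CPM (92.4 to 121), and basal-like cells held 50.7 CPM (47.8 to 53.8) and 52.5 CPM (44.3 to 61.8), in sets 1 and 2. The intervals overlapped in set 1 and were apart in set 2. Luminal-like cells had the same Tgfb2 level within counting error in both sets, 14 CPM (12.7 to 15.4) and 14.4 CPM (13.7 to 15.1). Tgfb3, the remaining TGF-beta ligand, was near the detection floor outside the stroma. Its level was 37.3 CPM (28.8 to 47.4) and 36.0 CPM (28.3 to 45.1) in fibroblast-like cells, and no other named class exceeded 2.49 CPM.

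Bmp4, a mesenchymal ligand that restrains prostatic budding, was highest in fibroblast-like cells at 82.4 CPM (69.6 to 96.9) in set 1 and 52.3 CPM (42.9 to 63.0) in set 2. Endothelium-like cells of set 2 held 50.1 CPM (40.7 to 61.0) of Bmp4, which did not differ from the fibroblast-like level beyond counting error. Luminal-like cells held little of it in set 1, 0.984 CPM (0.659 to 1.41), and 8.87 CPM (8.36 to 9.41) in set 2. In set 2, 15.1% of luminal-like cells held a Bmp4 UMI at a median depth of 16326 UMIs, against 0.426% of macrophage or dendritic-like cells at a median of 7669 UMIs. Bmp7, a BMP ligand of epithelia, was highest in luminal-like cells of both sets. Luminal-like cells held 58.5 CPM (55.8 to 61.3) and 116 CPM (115 to 118), and the fibroblast-like level of 57.0 CPM in set 1 did not differ from the luminal-like level beyond counting error.

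The receptors were divided between classes. Tgfbr1, the type I receptor, was highest in macrophage or dendritic-like cells at 113 CPM (95.9 to 132) and 169 CPM (151 to 188). Its levels in basal-like and both luminal-like classes were narrow in range, from 23.8 CPM (luminal-like, set 2) to 34.8 CPM (proximal or urethral luminal-like, set 2). Tgfbr2, the type II receptor that binds the ligand first, was highest in T or NK-like cells of set 1, 163 CPM (151 to 176), and in endothelium-like cells of set 2, 134 CPM (118 to 151). Basal-like cells held 59.9 CPM (56.7 to 63.2) and 75.5 CPM (65.6 to 86.5). Luminal-like cells were at the low end in both sets, with 15.4 CPM (14 to 16.8) in set 1 and 2.31 CPM (2.05 to 2.59) in set 2.

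Of the inhibitors, Bambi was highest by class in vessels and stroma. Luminal-like cells of set 2, taken as a class, reached the fibroblast-like level but not that of endothelium-like cells. Cluster 2 of these luminal-like cells, described below, held 310 CPM (305 to 316). Endothelium-like cells of set 2 held 305 CPM (281 to 331), and fibroblast-like cells held 203 CPM (182 to 225) and 178 CPM (161 to 197). Bambi in luminal-like cells stood at 12.2 CPM (10.9 to 13.5) in set 1 and 171 CPM (169 to 173) in set 2, the latter within the fibroblast-like interval. A Bambi UMI was seen in 60.5% of luminal-like cells and 11.1% of macrophage or dendritic-like cells of set 2, at the median depths given for Bmp4. Among classes of 50 or more cells, Smad7 was highest in endothelium-like cells of set 2, 461 CPM (431 to 492). In set 1 it was highest in T or NK-like cells, 426 CPM (405 to 446). The 40 endothelium-like cells of set 1, left out of that order, held more Smad7, 917 CPM (810 to 1035). Luminal-like cells held 32.0 CPM in set 1 and 41.8 CPM in set 2. Id1, whose protein blocks basic helix-loop-helix factors, was highest in endothelium-like cells of set 2 at 1266 CPM and stood at 2822 CPM in the 40 such cells of set 1. Within the epithelium Id1 was higher in basal-like cells, 211 CPM (205 to 217) and 448 CPM (423 to 474), than in luminal-like cells, 83.4 CPM (80.2 to 86.8) and 126 CPM (124 to 128).

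Next, EGFP-high cells were set against EGFP-low cells of the same class and set, to compare epithelial cells with high and low levels of the reporter. The low side can still hold cells that carry the transgene, and the hARtg level is given with each comparison. In luminal-like cells of set 2 (5561 EGFP-high and 170 EGFP-low cells), Bambi, Bmp4, Tgfb1 and Bmp7 were higher and Tgfbr2, Tgfb3 and Tgfb2 lower in EGFP-high cells. Thus 4 of the 10 genes were past 2-fold higher and 3 past 2-fold lower, where 16.2% of the 13648 genes compared were higher and 22.2% lower. EGFP stood at 10058 CPM on the high side and 207 CPM on the low side, and hARtg, listed as ARQ, at 1564 and 97.5 CPM, beside 157 CPM in leukocyte-like cells of set 2.

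Under the main clustering, Bambi showed the widest gap of the 10 genes, with a log2 ratio of 4.59 (4.05 to 5.18). It stood at 177 CPM (21023 UMIs) in EGFP-high and 7.38 CPM (28 UMIs) in EGFP-low cells. Bmp4 had 1090 UMIs, or 9.18 CPM, in EGFP-high cells and only 2 UMIs, or 0.527 CPM, in EGFP-low cells, so that its log2 ratio of 4.12 had a wide interval (2.27 to 7.17). Tgfb1 stood at 29.4 and 6.33 CPM, a log2 ratio of 2.22 (1.64 to 2.86). Bmp7 was abundant on both sides, at 119 and 54.8 CPM, with a log2 ratio of 1.12 (0.92 to 1.32). Both BMP ligands were thus on the same side as the pseudoreceptor. Tgfbr2 was nearly missing from EGFP-high cells, with 178 UMIs in 5561 cells (1.5 CPM), whereas the 170 EGFP-low cells gave 64 UMIs (16.9 CPM), a log2 ratio of -3.49 (-3.91 to -3.06). Tgfb2 stood at 13.9 and 28.2 CPM with a log2 ratio of -1.02 (-1.31 to -0.73), and Tgfb3 was under 1.5 CPM on both sides, with a log2 ratio of -2.33 (-3.71 to -0.61). Tgfbr1 (log2 ratio -0.69), Id1 (-0.58) and Smad7 (-0.33) were within 2-fold, each lower in EGFP-high cells.

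The sides did not hold the same luminal clusters. Of the EGFP-low cells, 95.9% lay in cluster 8, led by Tgm4 and Ren1, whereas the EGFP-high cells lay in clusters 2, 3, 5 and 6 (29.8, 29.1, 26.4 and 13.3%). EGFP side and cluster therefore cannot be told apart in set 2. The EGFP-high side also had less of the luminal marker list (17747 against 35313 CPM) and more of a list of dissociation stress genes (25626 against 7362 CPM), whose part in the result was not tested. Comparing the highest with the lowest EGFP tertile of luminal-like cells, which leaves most cells of both sides in the EGFP-high range, left only Tgfbr2 past 2-fold, with a log2 ratio of -1.95. The log2 ratio of Bambi between these tertiles was -0.92, of Bmp4 -0.096 and of Bmp7 -0.044. With clusters found without integration of the sets, Tgfbr2 had the widest gap by EGFP side (log2 ratio -4.70). Bmp4 (4.39) and Bambi (2.65) came after it, so the rank of Bambi rested on how cells were clustered.

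**Figure D2:**
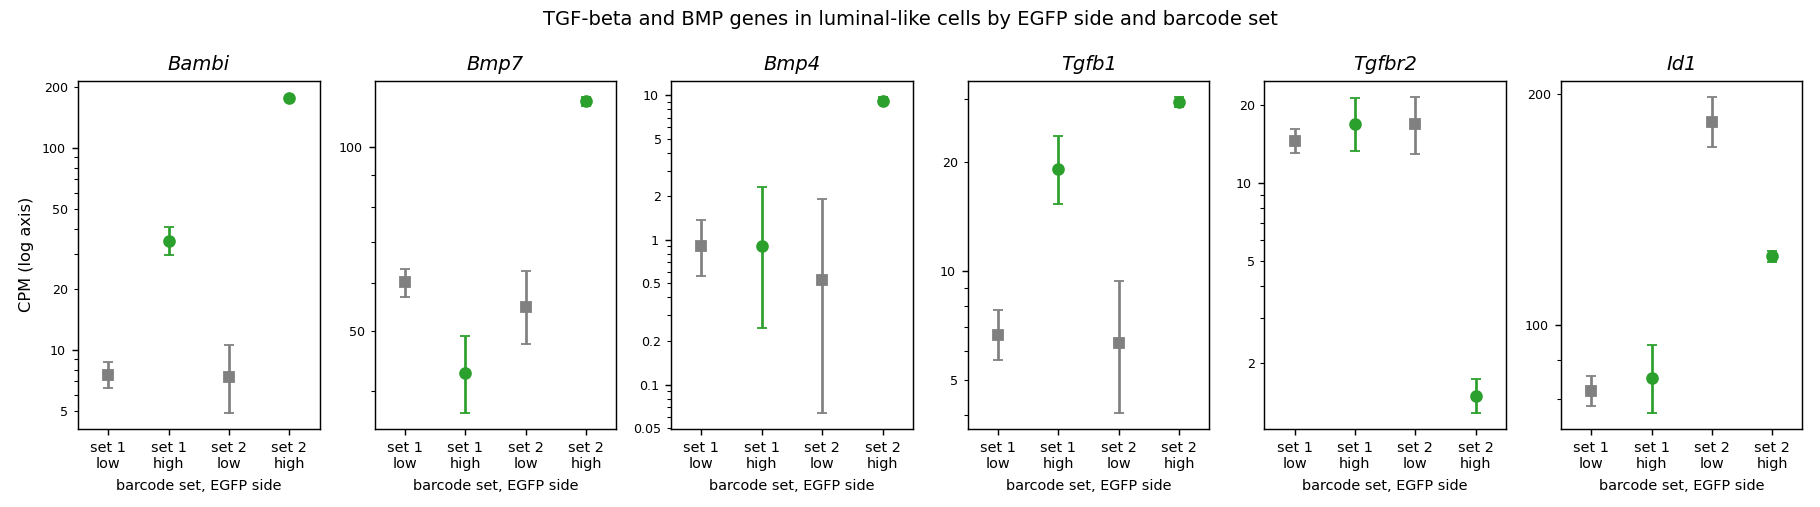
CPM (log axis) of 6 genes in luminal-like cells of each barcode set, with EGFP-low cells as grey squares and EGFP-high cells as green circles; bars are exact Poisson 95% intervals. Tgfbr2 stands between 14.6 and 16.9 CPM in 3 of the 4 groups and at 1.5 CPM in EGFP-high cells of set 2, where the Bambi level is 177 CPM and the highest of the 4.

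In luminal-like cells of set 1 (129 EGFP-high and 737 EGFP-low cells), Bambi and Tgfb1 were higher in EGFP-high cells, and the other members were not past 2-fold. These 2 of 9 genes compare with 5.47% of all genes past 2-fold higher and 4.06% lower. Bambi stood at 34.8 CPM in EGFP-high and 7.58 CPM in EGFP-low cells, a log2 ratio of 2.20 (1.88 to 2.52), and Tgfb1 at 19.2 and 6.67 CPM, a log2 ratio of 1.52 (1.13 to 1.92). Tgfbr2 did not differ beyond counting error, at 16.9 and 14.6 CPM (log2 ratio 0.22). Bmp4 was at 0.904 CPM on both sides. Bmp7 had a direction opposite to that in set 2, with 42.7 and 60.1 CPM and a log2 ratio of -0.49 (-0.72 to -0.27).

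In set 1, hARtg stood at 485 CPM in EGFP-high and 22.0 CPM in EGFP-low luminal-like cells, beside 14.2 CPM in leukocyte-like cells. The EGFP-high cells of set 1 lay mostly (71.3%) in cluster 11, led by Wfdc3, Msmb and Pbsn, and the EGFP-low cells in cluster 8 (57.7%) and cluster 11 (38.0%). Cluster 11 alone therefore allowed a comparison within 1 cluster, of 92 EGFP-high and 280 EGFP-low cells. There, Bambi stood at 43.2 and 10.3 CPM (log2 ratio 2.06, 1.70 to 2.43) and Tgfb1 at 16.6 and 7.26 CPM (1.19, 0.67 to 1.71). Id1 was also past 2-fold, at 86.7 and 25.03 CPM (1.79, 1.55 to 2.04), so that 3 members were past 2-fold higher in cluster 11, against 4.72% of all genes higher and 3.01% lower. The calls of Bambi and Tgfb1 in set 1 rested on how cells were clustered. With clusters found without integration of the sets, the log2 ratios were 0.16 for Bambi and 0.51 for Tgfb1, and none of the 10 genes was past 2-fold.

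In basal-like cells, Tgfb2 was the member with the widest gap and was lower in EGFP-high cells of both sets. It stood at 26.6 and 64.5 CPM in the 515 EGFP-high and 947 EGFP-low cells of set 1, a log2 ratio of -1.28 (-1.51 to -1.06). In set 2, with 162 and 184 cells, it stood at 37.7 and 72.1 CPM, a log2 ratio of -0.94 (-1.46 to -0.42). Tgfb2 was the only 1 of 9 genes past 2-fold in set 1, where 3.76% of all genes were higher and 4.83% lower, and 0 of 8 were past 2-fold in set 2 (3.71% higher and 1.71% lower). Tgfb1 was lower in EGFP-high cells by less, with log2 ratios of -0.58 and -0.51. Tgfbr2 (52.4 and 65.5 CPM, -0.32) and Smad7 (42.1 and 53.3 CPM, -0.34) were also lower in set 1 by small amounts. Bambi was lower in set 1 (19.996 and 36.5 CPM, log2 ratio -0.87), opposite to its direction in luminal-like cells, and Bmp7 was higher (26.2 CPM in EGFP-high cells, log2 ratio 0.80, 0.50 to 1.10). In set 2, clustering without integration and EGFP tertiles gave Bambi log2 ratios of -0.06 and -0.73, so its direction in basal-like cells rests mainly on set 1. The same 2 settings gave 0.46 and 0.007 for Bmp7, 0.10 and -0.15 for Tgfbr2, and -0.44 and -0.52 for Smad7. EGFP-low basal-like cells also held hARtg, at 110 CPM in set 1 (740 CPM on the high side and 14.2 CPM in leukocyte-like cells) and 391 CPM in set 2 (802 and 157 CPM). The low side thus held transgene transcripts above the leukocyte-like level in both sets. The basal marker list stood at 8278 CPM in EGFP-high and 12972 CPM in EGFP-low cells of set 1, and its part in these results was not tested.

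In proximal or urethral luminal-like cells of set 1 (121 EGFP-high and 1304 EGFP-low cells), 1 of the 10 genes was past 2-fold, against 3.77% higher and 3.2% lower of all genes. That gene was Tgfb3, lower in EGFP-high cells, with only 1 UMI there and 21 UMIs in EGFP-low cells. It was near the detection floor, at 0.494 CPM over the whole class in set 1. Id1 reached 206 against 104 CPM in EGFP-high cells (log2 ratio 0.99, 0.89 to 1.09), and Bambi 18.2 against 9.78 CPM (0.90, 0.54 to 1.24). Within cluster 4, the Krt6a and Clu cluster that held most of this class, Id1 stood at 198 and 85.9 CPM (1.21, 1.09 to 1.32) and Bambi at 15.05 and 7 CPM (1.10, 0.66 to 1.53), where 3.5% of all genes were higher and 3.18% lower. Other marker lists moved with the split of the whole class. They stood at 11236 and 5901 CPM for proximal or urethral markers, 1928 and 974 CPM for basal, 239 and 77.3 CPM for fibroblast and 194 and 50.2 CPM for leukocyte markers in EGFP-high and EGFP-low cells, and hARtg stood at 464 and 19.2 CPM. Their part in these results was not tested. Set 2 held 30 EGFP-low cells of this class, and no comparison was made there.

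**Figure D3:**
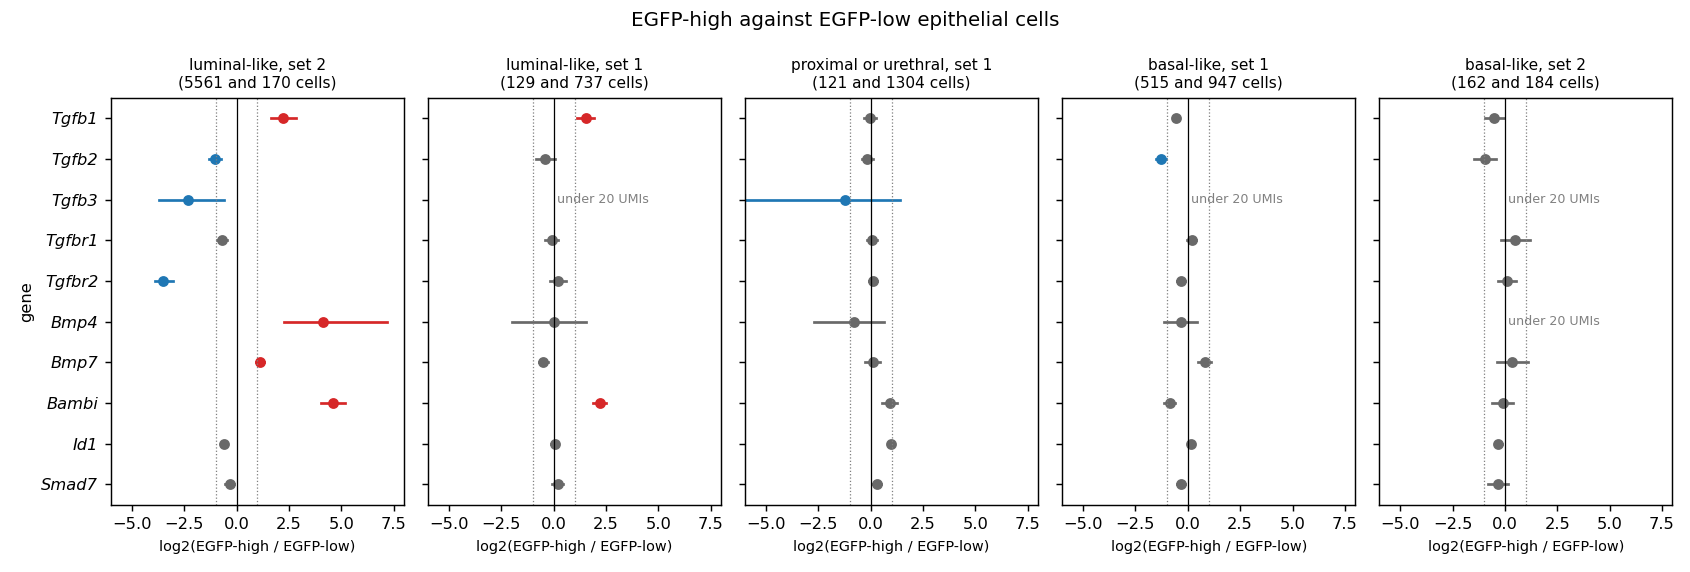
Log2 ratio of EGFP-high to EGFP-low cells for the 10 genes in 5 class and set combinations; bars are 95% counting intervals, dotted lines mark 2-fold, and red and blue points are past 2-fold higher and lower. Bambi is at 4.59 and 2.20 in luminal-like cells of sets 2 and 1 and at -0.87 in basal-like cells of set 1, and Tgfbr2 is past 2-fold in luminal-like cells of set 2 alone.

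The barcode sets were then compared within classes. Each set is 1 ending of the cell names, so a difference between them can be one of tissue, animal, dissociation or library, which cannot be told apart. In luminal-like cells (5902 of set 2 and 928 of set 1), Bambi, Bmp4 and Tgfb1 were past 2-fold higher in set 2 and Tgfbr2 past 2-fold lower. These are 3 and 1 of the 10 genes, where 15% of all genes were higher and 22.2% lower. Log2 ratios were 3.81 (3.66 to 3.97) for Bambi, 3.17 (2.64 to 3.76) for Bmp4, 1.64 (1.47 to 1.83) for Tgfb1 and -2.74 (-2.95 to -2.52) for Tgfbr2. Bmp7 lay just under 2-fold at 0.99 (0.92 to 1.07), and Tgfb2 did not differ beyond counting error (0.04). Id1 was higher in set 2 by less (126 and 83.4 CPM, 0.60, 0.53 to 0.66), as was Smad7 (41.8 and 32.0 CPM, 0.38, 0.28 to 0.48). The luminal marker list stood at 18354.7 CPM in set 2 and 47470.5 CPM in set 1, and the dissociation stress list at 24773.6 and 9773 CPM. Median depth was 16326 and 28437.5 UMIs per cell. The part of these differences in the result was not tested.

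For Bambi, Bmp4 and Tgfbr2, the gap between the sets was past 2-fold in EGFP-high but not in EGFP-low luminal-like cells, a difference that was not tested. The sides were not matched in EGFP between the sets, since EGFP-high began at 288 CPM in set 1 and 4081 CPM in set 2. EGFP on the high side stood at 3716 CPM in set 1 and 10058 CPM in set 2, and hARtg at 485 and 1564 CPM. On the low side EGFP stood at 14.7 and 207 CPM. In EGFP-low luminal-like cells (170 of set 2 and 737 of set 1), Bambi stood at 7.38 and 7.58 CPM (log2 ratio -0.04, -0.67 to 0.54), Tgfbr2 at 16.9 and 14.6 CPM (0.21, -0.20 to 0.60) and Tgfb1 at 6.33 and 6.67 CPM (-0.08, -0.76 to 0.55). Of the 9 members with a ratio, Id1 alone was past 2-fold there, at 184 and 82.0 CPM (1.17, 1.04 to 1.29), against 5.01% of all genes higher and 14.7% lower. In EGFP-high luminal-like cells (5561 and 129 cells), Bmp4, Bambi and Bmp7 were past 2-fold higher in set 2 and Tgfbr2 and Tgfb3 lower, against 12.6% of all genes higher and 24.1% lower. Bambi stood at 177 and 34.8 CPM (2.35, 2.12 to 2.59), Bmp7 at 119 and 42.7 CPM (1.48, 1.27 to 1.69) and Tgfbr2 at 1.5 and 16.9 CPM (-3.498, -3.89 to -3.09). Different clusters held these cells: clusters 2, 3, 5 and 6 in set 2, and cluster 11 in set 1. Cluster 8 held cells of both sets (257 of set 2 and 482 of set 1), and Bambi was the only member past 2-fold in it, at 13.5 and 4.81 CPM (1.48, 0.995 to 1.98), where 5.37% of all genes were higher and 10.2% lower. EGFP in cluster 8 stood at 2134 CPM in set 2 and 273 CPM in set 1. Macrophage or dendritic-like cells of set 2 held Bambi at 20.4 CPM, and the part of free RNA in the cluster 8 value was not tested.

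**Figure D4:**
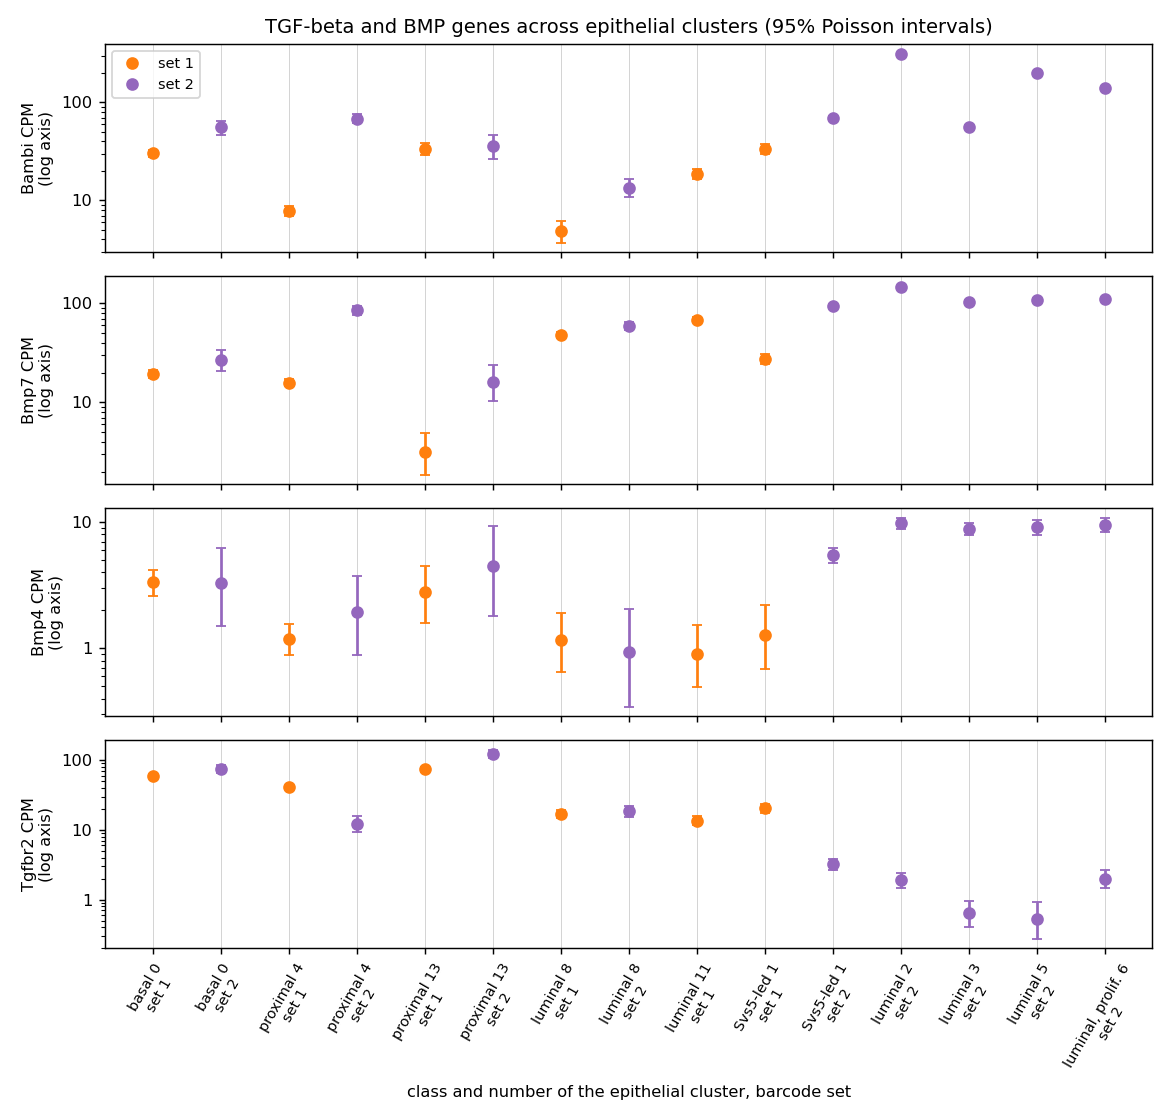
CPM (log axis) of Bambi, Bmp7, Bmp4 and Tgfbr2 in epithelial clusters of set 1 (orange) and set 2 (purple), with exact Poisson 95% intervals. Tgfbr2 is between 0.527 and 1.98 CPM in luminal clusters 2, 3, 5 and 6 of set 2, whereas Bambi ranges from 56.2 to 310 CPM in the same clusters.

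The luminal clusters of set 2 shared low Tgfbr2 but not the level of Bambi. Tgfbr2 stood at 1.89 CPM in cluster 2, led by Defa22, 0.641 CPM in cluster 3, led by Mt4 and Gulo, 0.527 CPM in cluster 5, led by Wnt6 and Notum, and 1.98 CPM in the proliferating cluster 6. In cluster 8 of the same set Tgfbr2 was at 18.5 CPM. Bambi was at 310 CPM (305 to 316) in cluster 2, 197 CPM in cluster 5, 140 CPM in cluster 6 and 56.2 CPM in cluster 3. Bmp4 was even across these 4 clusters, from 8.86 to 9.76 CPM, and at 0.939 CPM in cluster 8. Bmp7 ranged from 104 to 148 CPM in the 4 clusters and stood at 59.3 CPM in cluster 8. The luminal name was weak for some of them. The luminal marker score, a mean of levels standardized over clusters, was -0.01 in cluster 2 and -0.06 in cluster 5. It was 0.47 in cluster 3, 0.53 in cluster 6 and 1.22 in cluster 8. Clusters led by Defa22 stayed unnamed with doublets kept and without integration, as did a Tgm3-led cluster with Defa21 and Defa22 at resolution 1.

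Bambi and Bmp7 also stood higher in set 2 elsewhere in the epithelium. In proximal or urethral luminal-like cells (286 of set 2 and 1539 of set 1), both were past 2-fold, and these 2 of 10 genes compare with 12.1% of all genes higher and 10.9% lower. Bambi stood at 60.03 and 10.8 CPM (log2 ratio 2.47, 2.28 to 2.67) and Bmp7 at 68.0 and 14.3 CPM (2.25, 2.07 to 2.42). Id1 (193 and 116 CPM, 0.73, 0.63 to 0.82) and Smad7 (64.1 and 41.7 CPM, 0.62, 0.46 to 0.78) were higher by less. The sides also differed in EGFP (8197 and 342 CPM), seminal vesicle markers (1013 and 0.309 CPM), leukocyte markers (1273 and 64.0 CPM) and proximal or urethral markers (2790 and 6389 CPM), whose part was not tested. Within cluster 4 (209 and 1351 cells), Tgfbr2 was lower as well, at 12.2 and 41.0 CPM (-1.75, -2.16 to -1.37), where 12.3% of all genes were higher and 16.4% lower, while in cluster 13, led by Msln (77 and 188 cells), Tgfbr2 stood at 123 and 73.7 CPM. In the cluster led by Svs5 (1662 and 284 cells), Tgfbr2 was lower in set 2 (-2.65) and Bmp4 (2.08), Bmp7 (1.80) and Bambi (1.05) were higher, 4 of 9 genes against 13.5% of all genes higher and 16% lower. Seminal vesicle markers in that cluster summed to 7493 CPM in set 2 and 7.13 CPM in set 1, so it is not given a cell type.

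In basal-like cells (366 and 1700 cells), Id1 was the only 1 of 9 genes past 2-fold between the sets, where 7.02% of all genes were higher and 7.94% lower. Its log2 ratio was 1.09 (0.996 to 1.18), and it was 0.88 in EGFP-high and 1.34 in EGFP-low basal-like cells by the EGFP limits of each set. Bambi was also higher in set 2, at 55.5 and 30.1 CPM (0.88, 0.62 to 1.14), and Bmp7 at 26.6 and 19.5 CPM (0.45, 0.07 to 0.81), while Tgfb1 was lower, at 65.3 and 112 CPM (log2 ratio -0.77). Macrophage or dendritic-like cells held 20.4 CPM of Bambi and 15.4 CPM of Bmp7 in set 2, and 2.84 CPM of each in set 1. The part of free luminal RNA in the basal-like values was not tested. Tgfbr2 in basal-like cells stood at 75.5 CPM in set 2 and 59.9 CPM in set 1. In fibroblast-like cells (360 and 197 cells), Tgfbr2 was higher in set 2, at 111 and 53.1 CPM (1.06, 0.71 to 1.42), the only 1 of 10 past 2-fold against 8.01% of all genes higher and 6.93% lower. Tgfb2 (106 and 62.1 CPM, 0.77) and Tgfbr1 (107 and 62.1 CPM, 0.79) were higher by less, Bmp4 was lower (52.3 and 82.4 CPM, -0.66), and Tgfb3 (-0.05), Bambi (-0.18), Id1 (0.06) and Smad7 (-0.06) did not differ beyond counting error. Fibroblast-like cells also held EGFP, at 2504 CPM in set 2 and 27.1 CPM in set 1, and luminal markers, at 4339 and 1507 CPM. Per 1000 EGFP UMIs of set 2, they held 71.2 Bambi UMIs, beside 17.8 in luminal-like cells. The part of free luminal RNA in the fibroblast-like values was not tested. Smooth muscle markers in fibroblast-like cells were at 662 CPM in set 2 and 4118 CPM in set 1. Among cells with no Myh11, Des or Cnn1 UMI (212 and 60 cells), the log2 ratio of Tgfbr2 was 1.60 (0.88 to 2.41) and that of Bmp4 was -1.004 (-1.65 to -0.34), where 17.4% of all genes were higher and 5.52% lower.

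In macrophage or dendritic-like cells (235 and 95 cells), Bambi (41 and 4 UMIs, log2 ratio 2.85, 1.38 to 4.79) and Bmp7 (31 and 4 UMIs, 2.45, 0.95 to 4.41) were past 2-fold higher in set 2. These are 2 of 7 genes, against 9.25% of all genes higher and 13.7% lower. Set 2 macrophage or dendritic-like cells also held EGFP, at 1042 CPM against 83.6 CPM in set 1. Per 1000 EGFP UMIs of set 2, these cells held 19.6 Bambi and 14.8 Bmp7 UMIs, close to 17.8 and 12.1 in luminal-like cells, whereas endothelium-like cells held 242 Bambi UMIs. The part of free luminal RNA in the macrophage values was not tested. Of the transcripts these cells carry at high level, Tgfb1 was lower in set 2 (275 and 425 CPM, log2 ratio -0.63, -0.80 to -0.46) and Tgfbr1 higher (169 and 113 CPM, 0.58, 0.31 to 0.87). The macrophage marker list stood at 21954 CPM in set 2 and 6065 CPM in set 1, and its part in these values was not tested.

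**Figure D5:**
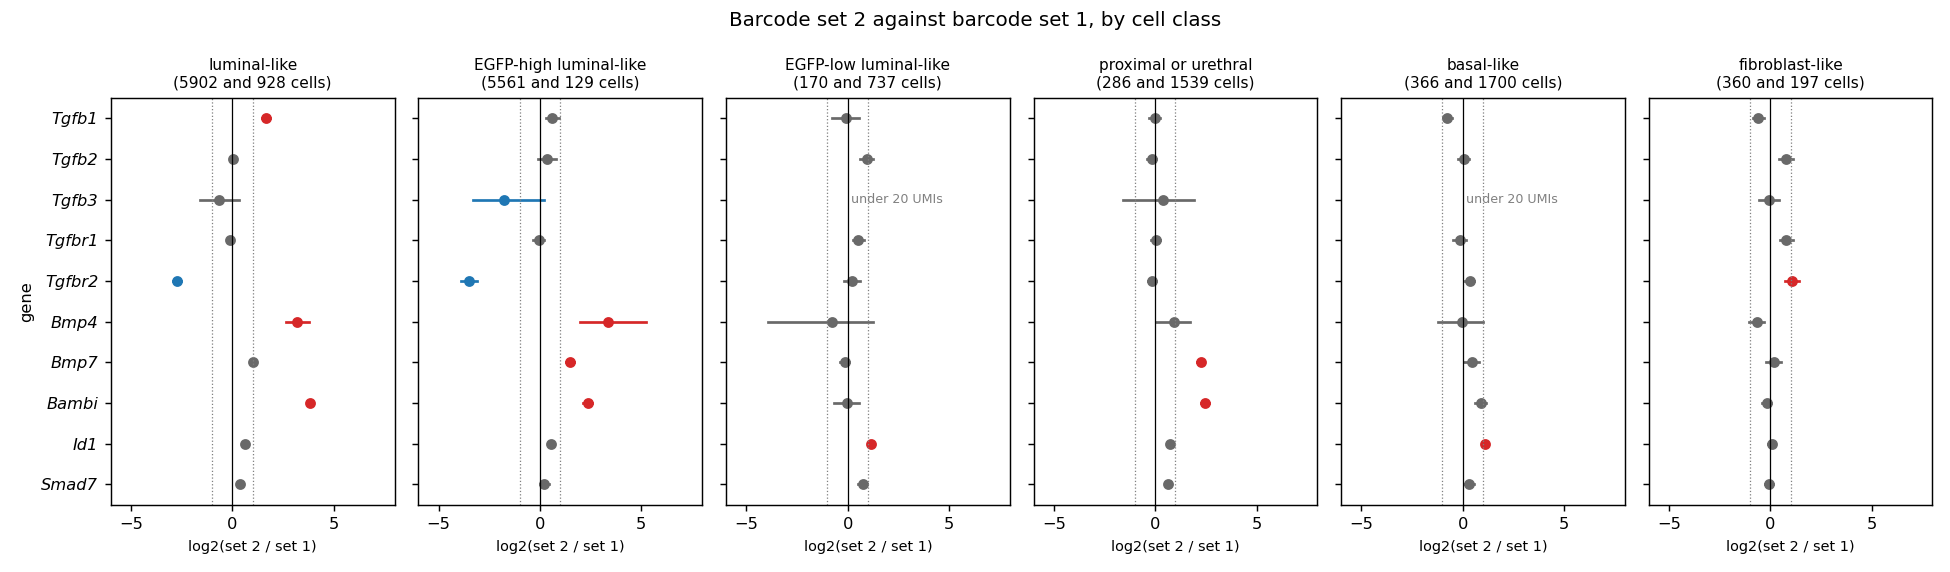
Log2 ratio of barcode set 2 to barcode set 1 for the 10 genes in 6 groups of cells; bars are 95% counting intervals, dotted lines mark 2-fold, and red and blue points are past 2-fold higher and lower in set 2. Bambi is at 3.81 in all luminal-like cells, 2.35 in EGFP-high and -0.04 in EGFP-low luminal-like cells. The EGFP limits differ between the sets.

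Other genes of the pathway were read from a list of 71 further ligands, modulators, latency proteins, receptors, transducers and targets, of which 70 were in the table. In luminal-like cells of set 2, 10 of the 51 with a ratio were past 2-fold higher and 13 past 2-fold lower in EGFP-high cells, against 16.2% and 22.2% of all genes. Their median log2 ratio was -0.21, beside -0.14 over all genes and -0.45 over the 10 members. Among the higher genes, the ligand Bmp2 stood at 44.7 and 3.95 CPM (log2 ratio 3.499, 2.78 to 4.34), the BMP target Id3 at 467 and 179 CPM (1.38, 1.27 to 1.49), the BMP-inhibiting Smad6 at 5.88 and 2.37 CPM (1.31, 0.38 to 2.45) and the extracellular BMP modulator Twsg1 at 97.4 and 24.8 CPM (1.98, 1.68 to 2.28). Id1 went the other way, as given above. The stress-responsive ligand Gdf15 stood at 108 and 19.2 CPM (2.49, 2.16 to 2.84).

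Among the lower genes, Pmepa1, a TGF-beta target whose product dampens SMAD2 and SMAD3 signaling, stood at 4.19 CPM in EGFP-high and 68.3 CPM in EGFP-low cells (log2 ratio -4.03, -4.25 to -3.80). The latent TGF-beta binding proteins Ltbp3 (2.09 and 40.6 CPM, -4.28) and Ltbp4 (1.54 and 15.3 CPM, -3.31) were lower, as were the co-receptor Tgfbr3 (11.2 and 41.1 CPM, -1.88) and the SMAD corepressor Skil (22.2 and 78.8 CPM, -1.83). The BMP receptor Bmpr1b was lower too, at 2.13 and 31.6 CPM (-3.89, -4.21 to -3.57). Smad2, Smad3, Smad4 and Bmpr2 were within 2-fold. The named genes do not stand for their groups. Of the 7 listed target genes with a ratio, 1 was past 2-fold higher and 1 lower, with a median log2 ratio of -0.03. Of the 13 transducers and intracellular inhibitors, Pmepa1 and Skil among them, 1 was higher and 3 lower, with a median of -0.35. In luminal-like cells of set 1, 3 of 47 pathway genes were past 2-fold higher and 2 lower, against 5.47% and 4.06% of all genes, and Pmepa1 stood at 123 and 138 CPM (-0.16).

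Between the sets, 13 of 56 pathway genes were past 2-fold higher and 13 lower in luminal-like cells of set 2, against 15% and 22.2% of all genes, with a median log2 ratio of -0.11 beside -0.18 over all genes and 0.49 over the members. Pmepa1 (7.53 and 138 CPM, log2 ratio -4.20) and Bmpr1b (3.41 and 126 CPM, -5.20) were lower in set 2, and Id3 (457 and 109 CPM, 2.07) and Bmp2 (43.2 and 7.12 CPM, 2.60) were higher. In cluster 4 of the proximal or urethral luminal-like class, Pmepa1 stood at 47.0 CPM in set 2 and 544 CPM in set 1 (-3.53, -3.73 to -3.34). In basal-like cells of set 1, 4 of 48 pathway genes were past 2-fold higher and 8 lower in EGFP-high cells, against 3.76% and 4.83% of all genes. The activin subunit Inhba (21.5 and 85.6 CPM, -1.99) and the activin antagonist Fst (298 and 829 CPM, -1.48) were lower alongside Tgfb2. The 4 higher genes were 3 receptors or co-receptors and 1 modulator.

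To place each gene among the others, Pearson correlations of log2(CPM + 1) were taken over the 15 named class and set combinations of 50 or more cells. Combinations of a set share a library, and correlations are given as descriptions. The gene most like Tgfbr2 among the 3 highest by name was Crtc3 (r = 0.956), and Pmepa1 (0.930) was also among them. Bambi was most like 9430020K01Rik (0.957), followed by Nckap5l (0.934) and Cdkn1c (0.933). Smad1 (0.965), a transducer of BMP receptors, was among the 3 genes most like Id1, after Rbpms (0.973). Bmp4 was most like Plpp3 (0.962), Bmp7 most like Tnfrsf19 (0.930), Tgfb3 most like Epyc (0.980), Tgfb2 most like Evi5 (0.969), Tgfb1 most like Rap2a (0.949), Tgfbr1 most like Tbc1d24 (0.923) and Smad7 most like Nedd9 (0.977).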

How the data were processed

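Prostate lesions were dissociated and profiled with 10x Genomics 3′ v2 chemistry. Per the labels, the authors counted UMIs with Cell Ranger 3.1.0 on mm10, and per their methods with the hARtg and mGFP sequences added. As deposited, the table holds each gene's natural log value, ln(1 + 10000 × UMIs / total UMIs of the cell). Whole UMIs were recovered for 100% of values within a tolerance of 0.001. The 10 genes and the pathway list were chosen with earlier results of these data known. Scrublet in scanpy 1.11.5 called 155 (2.45%) and 175 (1.86%) doublets at a limit of 0.25, set after scores were seen, since its automatic limits called 0. Cells were clustered in Seurat 5.3.0 (R 4.3.3) after integration of the sets, with 2000 features, 20 dimensions, 30 principal components and resolution 0.5, keeping the members, pathway genes, EGFP and ARQ out of the features. Classes were named from marker lists when 3 or more markers were seen in 25% of cells. UMIs were summed per class and set. A sum of 0 entered a ratio at a floor of 3 UMIs, and sides under 50 cells were not compared. Ratio code was tested on simulated data. The 10 members were taken without selection, other pathway genes from the list, and beside each member the genes of most similar pattern. Alternatives were other doublet, clustering and UMI limits, thinning to 3000 UMIs, and EGFP tertiles. PIN and PCa were not compared: the study's cell number for PIN equals that of set 1 and its number for PCa is close to that of set 2, but groups were taken from labels alone.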

Additional observations from a re-analysis of the deposited data

Results flagged for a closer look

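Bmp7 had opposite directions between EGFP-high and EGFP-low luminal-like cells of the barcode sets, at a log2 ratio of -0.49 for set 1 and 1.12 for set 2. Id1 did so in basal-like cells, with log2 ratios of 0.14 (0.05 to 0.23) in set 1 and -0.32 (-0.48 to -0.15) in set 2. These differences between the sets were not tested, since each set has no replicate. Tgfb2 stood at 340 CPM (299 to 385) in cluster 16 of set 2 (88 cells, led by Rgs5, Col1a1 and Acta2), which stayed unnamed and entered no comparison, and this is above its level in every named class.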

How the results depend on the processing

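No paired analysis was possible because there was 1 library of each tissue. Of the 1758 values of single members under an alternative, 1355 stayed within their counting interval, 393 moved beyond it and 10 turned direction. A turn is any change of sign, whatever its size, of a ratio past 2-fold in the main analysis. Between EGFP tertiles of luminal-like cells of set 2, the log2 ratios of Tgfb2 (0.26), Bmp4 (-0.096), Bmp7 (-0.044) and Bambi (-0.92) turned. Between the sets, Tgfbr2 (0.13) and Bmp4 (-0.31) turned within cluster 8, and Tgfb1 (-0.077), Tgfbr2 (0.21), Bmp4 (-0.78) and Bambi (-0.038) turned in EGFP-low luminal-like cells. The intervals given above for Tgfb1, Tgfbr2 and Bambi in EGFP-low cells span both signs, so no reversal is shown there. Bmp4 in cluster 8 rested on 6 UMIs in set 2 and 15 UMIs in set 1. The cause was not tested beyond this choice of cells.

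Of the counts of members past 2-fold, the luminal-like count by EGFP in set 2 was 7 and became 4 after thinning and 1 between tertiles, and in set 1 it was 2 and became 0 without integration. The luminal-like count between the sets was 4 and became 1 within cluster 8 and 1 in EGFP-low cells alone. With doublets kept, members whose highest class was shared went from 5 to 3, basal-like counts went from 0 to 1 by EGFP in set 2 and from 1 to 2 between the sets, and the fibroblast-like count went from 1 to 0. Thinning gave 2 in basal-like cells of set 1 by EGFP, 0 in fibroblast-like cells, and 2 in the Svs5-led cluster, where the count was 4. The basal-like count of set 2 was also 1 between tertiles and when thinned cells were split at 1 EGFP UMI. The proximal or urethral count of set 1 was 1 and became 0 at 100 or more UMIs, after thinning and between tertiles, and 2 with doublets kept, without integration, at resolution 1 and within cluster 4. The macrophage count of 2 became 0 at 100 or more UMIs and after thinning, and the fibroblast-like count was 2 without muscle transcripts. The cause was not tested. Depth limits Bmp4 and Tgfb3 most, with 2 UMIs of Bmp4 in EGFP-low luminal-like cells of set 2.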

Other observations

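The unnamed cluster 16 of set 2 also held Tgfb3 at 45.2 CPM (31.1 to 63.5), beside 36.0 CPM (28.3 to 45.1) in fibroblast-like cells of the set. Tgfbr2 stood at 98.7 CPM in the unnamed cluster 10 of set 2, led by Sbp and Sbpl (121 cells).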
